A study of Mus musculus with 3 samples.

Results

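The genes described here are 8 immunoregulatory metabolic enzymes, Ido1, Ido2, Kynu, Il4i1, Nos2, Aldh1a2, Ptgs2 and Acod1, out of 32285 genes in the count matrices. They were listed by name for their roles in amino acid, retinoid, prostaglandin and itaconate metabolism. Their raw counts were taken in each of the 3 libraries, in each deposited cluster of type 1 conventional dendritic cells (cDC1s), and in the barcodes outside that table that carried Ccr7, Cd209a or C1qa. Each of the 8 symbols matched exactly 1 gene.

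The study sorted dendritic cells from MCA205 LA OVA tumours, a transplanted mouse fibrosarcoma that carries the model antigen ovalbumin, and asked which states cDC1s take in them. Each library came from the pooled tumours of co-housed mice of both sexes and of 1 genotype, on a C57BL/6J background: WT, sGSN-/- (without secreted gelsolin, an actin-severing plasma protein) or sGSN-/-Clec9a-/- (also without DNGR-1, the cDC1 receptor for exposed actin filaments). The sort kept live CD45+ cells with CD11c and MHCII and without CD88 or lineage markers, and took pre-cDCs by CD135 and CD43, cDC1s by XCR1 and cDC2s by Sirpa, mixed in set proportions. With 1 library per genotype no genotype has a replicate, and sets of 3 values are given in the order WT, sGSN-/- and sGSN-/-Clec9a-/-.

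The matrices held 12763, 8173 and 9273 barcodes with 176578136, 109270958 and 113411930 unique molecular identifiers (UMIs, 1 per captured transcript), and a median of 13210, 11954 and 10649 UMIs per barcode. The deposited table listed 2316, 1712 and 1778 cDC1s in 12 clusters. Of the 24403 barcodes outside it, 23052 passed filters on detected genes and on the mitochondrial share of UMIs. Clec9a (ENSMUSG00000046080), the gene targeted in 1 library, gave 5502, 3970 and 2 UMIs in cDC1s, which is 168, 168 and 0.0931 CPM (counts per 1000000 UMIs). Gsn (ENSMUSG00000026879) gave 152, 169 and 167 CPM, and its count does not separate the secreted form from the other products of the gene. The loss of Clec9a was visible in its own library, and the loss of secreted gelsolin could not be read from these counts.

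These enzymes act on immune cells by using up a nutrient or by releasing a signalling metabolite. IDO1, IDO2 and kynureninase act on tryptophan and its product kynurenine, IL4I1 oxidises phenylalanine and tryptophan, inducible nitric oxide synthase uses arginine, RALDH2 makes retinoic acid, COX-2 makes prostaglandin precursors, and ACOD1 makes itaconate. In tumours several of them are known as enzymes of macrophages or of mature, migrating dendritic cells.

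Cells were grouped by the counts of genes outside the set. A gate held barcodes with at least 2 UMIs of its gene and fewer than 2 of the other gate genes. Outside the cDC1 table the gates were Ccr7, a chemokine receptor that guides mature dendritic cells to lymph nodes (150, 129 and 68 barcodes), Cd209a, a lectin of cDC2s (2884, 1252 and 1676 barcodes), and C1qa, a complement subunit made by macrophages (1785, 687 and 1000 barcodes). Within the table they were Ccr7 (57, 79 and 28 cells) and Cxcl9, a chemokine for T cells (160, 133 and 114 cells). Cells of the table with 0 UMIs of both genes served as the reference (1984, 1390 and 1550 cells).

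Marker lists were summed per gate without the gene that defines the gate. The 5 remaining markers of activated cDCs, all detected with Ccl22 highest, gave 1490, 1596 and 862 CPM in the Ccr7 gate outside the table, against 26.7, 34.2 and 25.8 CPM in the Cd209a gate, and 4309, 3002 and 3930 CPM in the Ccr7 gate of cDC1s, against 15.3 CPM or less in the reference. In this Ccr7 gate of cDC1s the WT library stood apart, with macrophage markers at 740 CPM (69.7 CPM or less in the other libraries; 9 of 9 detected, Apoe highest) and with 12.3%, 5.06% and 0% of cells among the highest doublet scores. The 8 remaining macrophage markers, all detected with C1qb highest, gave 7864, 7399 and 6930 CPM in the C1qa gate, against 315, 254 and 382 CPM in the Cd209a gate, although the sort was set against CD88-bearing cells. The 5 remaining cDC2 markers, all detected with Mgl2 highest, separated less, at 1181, 1182 and 1128 CPM in the Cd209a gate and 815, 888 and 800 CPM in the C1qa gate. Neutrophil markers summed to 4.41, 4.98 and 4.33 CPM in the C1qa gate, with S100a9 and Retnlg at 0. NK markers in the Ccr7 gate outside the table summed to 355, 929 and 657 CPM (4 of 4 detected, Gzma highest). In the Cd209a gate they were at 93.0, 228 and 217 CPM. T cell markers were at 60.8, 112 and 145 CPM (3 of 3, Cd3d highest), against 6.56, 22.1 and 11.1 CPM in the Cd209a gate. The Ccr7 gate outside the table is thus a mixed group, and which of its cells carried an enzyme was not tested. Barcodes among the 6% with the highest doublet scores of their library made up 10.7% of that gate, 8.60% of the Cd209a gate, 8.44% of the C1qa gate and 6.71% of the Ccr7 gate of cDC1s.

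The enzymes differed in where they were found. Among the 6 groups of cells, Il4i1 was highest in the Ccr7 gates inside and outside the cDC1 table. Nos2 and Ptgs2 were highest in the C1qa gate. Kynu was highest in the Ccr7 and Cd209a gates outside the table and, among cDC1s, in the Cxcl9 gate. Aldh1a2 was highest in the Ccr7 gate of cDC1s. Ido1 was rare, with 46.8% of its UMIs in the cDC1 table, Acod1 was rare everywhere, and Ido2 was not detected.

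**Figure D1:**
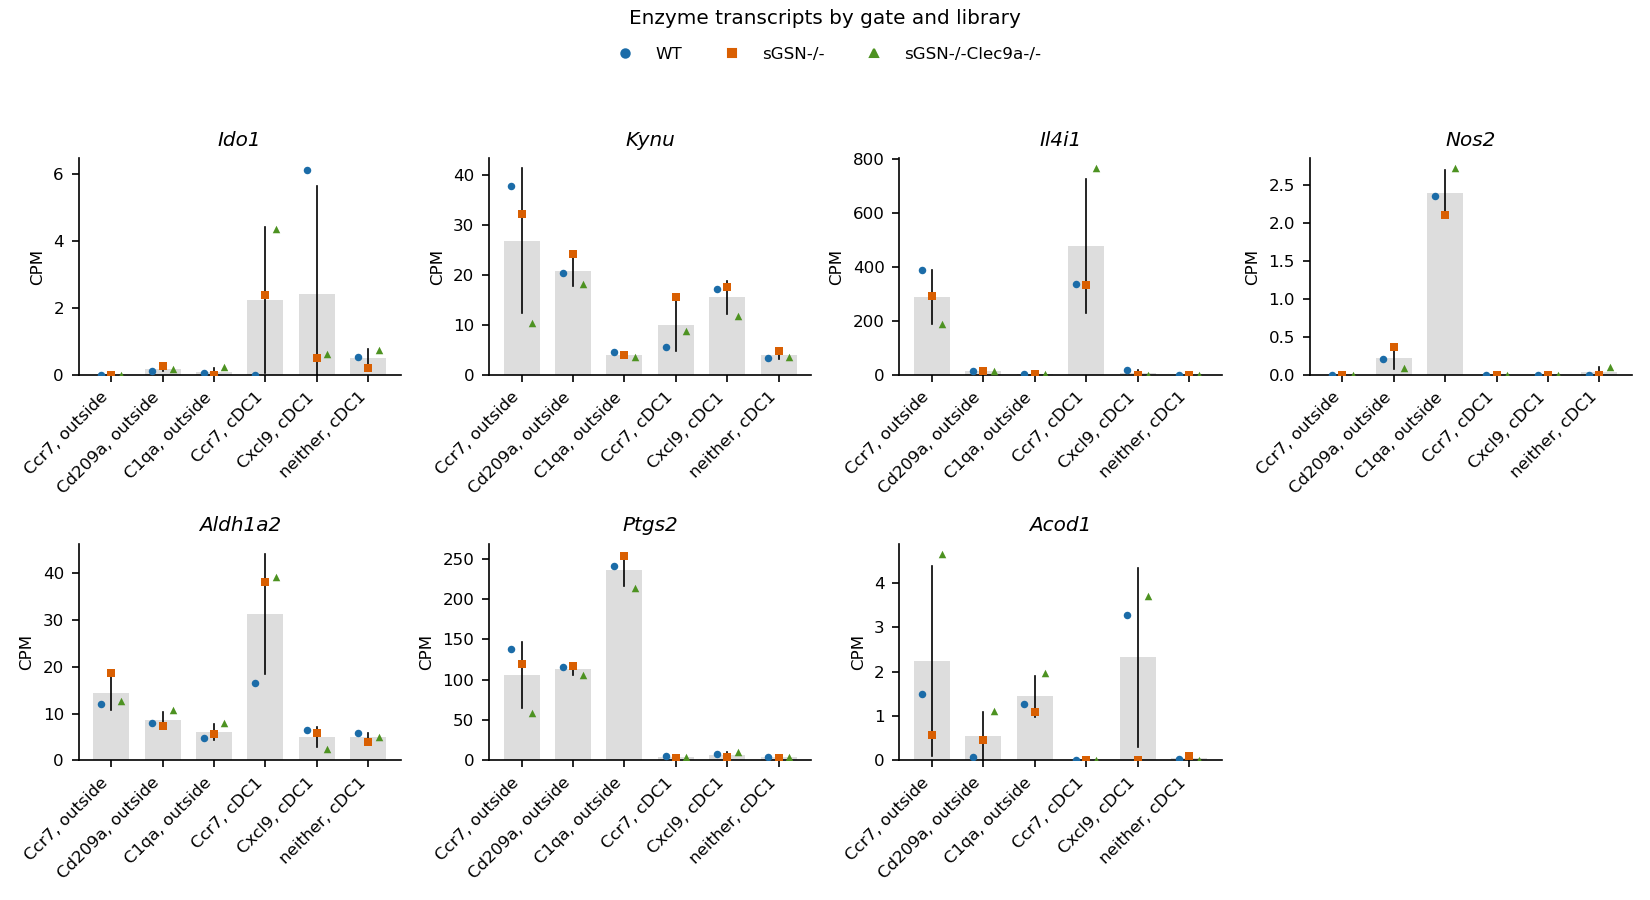
Level of 7 of the enzymes (Ido2 had 0 UMIs) in the 6 groups of cells, in CPM; symbols are the 3 libraries, bars their mean and lines 1 SD, drawn down to 0 where they would pass it. Il4i1 stood out in the Ccr7 gates, at 188 CPM or more in every library, and Ptgs2 in the C1qa gate, at 214 CPM or more.

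Differences between gates were tested with edgeR on UMIs summed per library and gate, over all genes that passed a filter on low counts, at an adjusted p of 0.05. Comparing the Ccr7 with the Cd209a gate outside the table sets barcodes rich in activated cDC markers, with some NK and T cell markers, beside Cd209a-marked ones: of 5 enzymes tested, 2 were called higher in the Ccr7 gate (15% of all genes tested were) and 0 lower (13.8% of genes). Comparing the C1qa with the Cd209a gate sets barcodes rich in macrophage markers beside the same ones: of 6 enzymes tested, 2 were called higher in the C1qa gate (19.2% of genes) and 2 lower (18.6% of genes). Among cDC1s, the Ccr7 and Cxcl9 gates were each set beside the reference cells and beside each other. Of 4 enzymes tested, 3 were called higher in the Ccr7 gate than in the reference cells (18% of genes) and 0 lower (23.4% of genes). Of 4 enzymes tested, 2 were called higher in the Cxcl9 gate than in the reference cells (7.14% of genes) and 0 lower (1.82% of genes). Of 3 enzymes tested, 2 were called higher in the Ccr7 than in the Cxcl9 gate (21.1% of genes) and 0 lower (22.1% of genes). Of the enzymes called, Aldh1a2 in the first of these comparisons, Kynu in the third and Il4i1 in the fourth lost the call when 1 library was left out, and with DESeq2 the fourth had 1 enzyme higher. Each of these counts of 0 from edgeR was also 0 at an unadjusted p of 0.05 and with DESeq2. With so few enzymes tested, the counts describe the set and no test was made of them.

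Ido1 (ENSMUSG00000031551, chromosome 8, 24584136 to 24597009, minus strand, GRCm38), which opens the indole ring of tryptophan and starts the kynurenine pathway, gave 56, 33 and 35 UMIs over all barcodes of the 3 libraries. In cDC1s it gave 31, 10 and 17 UMIs, or 0.949, 0.424 and 0.792 CPM. Cells of the table held 46.8% of its UMIs, against 19.5% of the UMIs of all genes, and barcodes outside the table with Xcr1 or Clec9a held another 24.2%. Most of this sparse transcript thus lay in cells with cDC1 features in each library, at 1 or a few UMIs per cell.

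The exception was a WT cell of cluster 7 with 11 UMIs of Ido1, 135 of Cxcl9 and 0 of Ccr7, whose doublet score was not among the highest. It supplied 11 of the 15 UMIs of Ido1 in the WT Cxcl9 gate, where the other libraries gave 1 and 1, and 11 of the 14 in cluster 7, where they gave 0 and 0. Ido1 was 0 in all 3 libraries of the Ccr7 gate outside the table, where 3 UMIs would have been 1.49, 1.70 and 3.49 CPM. It passed the filter on low counts in none of the 5 comparisons. Without the filter the Cxcl9 gate was above the reference by a log2 fold change of 2.41 (adjusted p = 0.00054), with that cell included. After thinning to 3900 UMIs per cell, 0.217% of cDC1s and 1.02% of the Cxcl9 gate had a UMI of Ido1, beside 0 of 2125 barcodes of an NK gate, which allows up to 0.141%. The NK gate held barcodes with at least 2 UMIs of Ncr1 and fewer than 2 of Ccr7, Cd209a, C1qa and Xcr1, and serves below only as a comparison, since it is not free of these transcripts. Of its 2413 barcodes, 9 had 10 or more UMIs of Il4i1 and 10 had 10 or more of Ptgs2, and these held 60.4% and 67.6% of the UMIs of those genes in the gate; 4 of the 9 and all 10 were among the highest doublet scores. Its median depth was 9272 UMIs, against 13501 in cDC1s and 14250 in the Cxcl9 gate.

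Ido2 (ENSMUSG00000031549, chromosome 8, 24531892 to 24576333, minus strand), the neighbouring paralogue of Ido1, gave 0 UMIs in all 30209 barcodes of the 3 libraries.

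Kynu (ENSMUSG00000026866, chromosome 2, 43555329 to 43682715, plus strand) encodes kynureninase, which turns kynurenine into anthranilic acid. It gave 1906, 1172 and 953 UMIs over all barcodes, and 44.4% of them lay in the Cd209a gate, which held 21.8% of all UMIs. Kynu measured 20.3, 24.2 and 18.1 CPM in the Cd209a gate, 37.9, 32.2 and 10.5 CPM in the Ccr7 gate outside the table, and 4.60, 3.97 and 3.58 CPM in the C1qa gate. The C1qa gate was the low one in every library, and the Ccr7 and Cd209a gates overlapped because the sGSN-/-Clec9a-/- library had only 9 UMIs of Kynu in its Ccr7 gate. Plasmacytoid dendritic cell markers (3 of 3 detected, Siglech highest) were at 76.0, 161 and 92.4 CPM in the Cd209a gate. In the C1qa gate they were at 5.68, 4.12 and 3.52 CPM. Cd7, a marker of pre-cDCs, had means of 180 and 7.91 CPM in these gates. The part of cells with such markers in Kynu was not tested. Against the Cd209a gate, the C1qa gate was lower by a log2 fold change of -2.33 (SE 0.12, adjusted p = 1.7e-06, 3 of 3 libraries). The Ccr7 gate differed by 0.59 (SE 0.25), which was not called (adjusted p = 0.11). It was called without the sGSN-/-Clec9a-/- library (0.74, adjusted p = 0.018), without the filter on low counts (0.53, adjusted p = 0.044) and with gates of at least 3 UMIs (0.73, adjusted p = 0.049), in a range of adjusted p from 0.018 to 0.68 over the alternatives.

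Among cDC1s, Kynu was 17.2, 17.6 and 11.7 CPM in the Cxcl9 gate (42, 36 and 19 UMIs), 5.50, 15.5 and 8.71 CPM in the Ccr7 gate (4, 13 and 2 UMIs) and 3.42, 4.72 and 3.61 CPM in the reference cells. All 3 libraries of the Cxcl9 gate lay above all 3 of the reference, while the Ccr7 gate reached from just above the reference into the range of the Cxcl9 gate. The Cxcl9 gate was higher than the reference by a log2 fold change of 2.07 (SE 0.22, adjusted p = 8.8e-06) and the Ccr7 gate by 1.47 (SE 0.44, adjusted p = 0.011), each in 3 of 3 libraries. The second call was lost without the sGSN-/- library, which held most of the Kynu UMIs of that gate: the value was then 0.83 (adjusted p = 0.4). With gates of at least 1 UMI it was 1.11 (adjusted p = 0.088), in a range of adjusted p from 0.0004 to 0.4. The Ccr7 and Cxcl9 gates themselves differed by -0.48 (SE 0.39), which was not called (adjusted p = 0.33) and was 0.01 without the WT library (adjusted p = 0.99, in a range from 0.16 to 0.99).

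The deposited clusters placed Kynu more narrowly. Clusters are described with no test, since the authors drew them from the same counts. Cluster 10, which held 21, 27 and 28 cells and in which 68 of 76 cells were in the Cxcl9 gate, carried 74.4, 67.7 and 43.5 CPM of Kynu (61.9 ± 16.3, SD over 3 libraries) on 21, 21 and 13 UMIs. Cluster 8, which held 153 of the 164 cells of the cDC1 Ccr7 gate, carried 17.4, 29.9 and 17.5 CPM. It had 65 UMIs of Kynu and the whole gate only 19, so most of them lay in cells of cluster 8 outside the gate. The shallow cluster 11, set aside in this order, had 2 UMIs. Next came cluster 7 at 10.1, 13.3 and 11.97 CPM, cluster 4 at 8.16, 11.4 and 6.80 CPM, cluster 1 at 6.98, 6.10 and 6.55 CPM and cluster 5 at 6.49, 8.51 and 4.16 CPM, whose ranges overlapped with at least 1 neighbour in that order. Cluster 9, although 67 of its 162 cells were in the Cxcl9 gate, gave 0, 0 and 1.48 CPM. Cluster 10 therefore stood above clusters 0 to 9 in every library, which was so for 1.37% of the genes compared, and cluster 9 was near 0. Cluster 10 also held cDC2 markers at 142, 512 and 100 CPM (6 of 6 detected, Cd209a highest), against 54.6, 54.2 and 52.1 CPM in the reference. Activated cDC markers were at 418, 45.1 and 77.0 CPM there (4 of 6 detected, Ccl22 highest), against 15.3 CPM or less in the reference. The part of these markers in its Kynu was not tested, and not every marker list is given for this cluster.

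Cell shares showed the same order. After thinning, 14.3% of cluster 10, 11.7% of the Ccr7 gate outside the table, 8.78% of the Cd209a gate, 6.35% of the cDC1 Cxcl9 gate and 1.60% of the reference cells had a UMI of Kynu, beside 0.282% of the NK gate. Unthinned shares were 40.8%, 26.2%, 22.0%, 15.2% and 4.55%, beside 1.08% in the NK gate. No cell had 10 or more UMIs of Kynu, and the most in a cell was 8, so that this transcript was spread thinly over many cells. Median depths were 11163 UMIs in the Ccr7 gate outside the table, 12684 in the Cd209a gate, 15649 in the C1qa gate, 14250 in the Cxcl9 gate and 13472 in the reference, against 9272 in the NK gate. Barcodes with Siglech, a plasmacytoid dendritic cell marker, held 6.27% of the Kynu UMIs and 1.20% of all UMIs.

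Il4i1 (ENSMUSG00000074141, chromosome 7, 44816387 to 44840809, plus strand) encodes a secreted oxidase of aromatic amino acids. Its span overlaps Nup62 on the same strand and Atf5 and Tbc1d17 on the other. It gave 2588, 2066 and 1198 UMIs. In the Ccr7 gate outside the table it measured 389, 294 and 188 CPM, against 13.9, 15.4 and 15.7 CPM in the Cd209a gate and 3.08, 1.79 and 2.14 CPM in the C1qa gate. The 3 gates did not overlap, and the order Ccr7, Cd209a, C1qa held in each library. The Ccr7 gate was above the Cd209a gate by a log2 fold change of 4.38 (SE 0.22, adjusted p = 1.1e-06), and the C1qa gate was below it by -2.59 (SE 0.16, adjusted p = 4.2e-06). The C1qa gate had a UMI in 0.817% of thinned cells, beside 1.60% of the NK gate, where a few barcodes had high counts.

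In cDC1s the contrast was wider. Il4i1 was 336, 332 and 767 CPM in the Ccr7 gate (244, 279 and 176 UMIs), 18.4, 0.980 and 0 CPM in the Cxcl9 gate (45, 2 and 0 UMIs) and 0.756, 1.31 and 1.51 CPM in the reference cells. The Ccr7 gate was far above both others in all 3 libraries. Its log2 fold change was 8.54 over the reference (SE 0.27, adjusted p = 6.1e-16) and 5.96 over the Cxcl9 gate (SE 0.45, adjusted p = 2.8e-10). The second value was 9.71 without the WT library (adjusted p = 7.6e-10) and 5.14 without the sGSN-/-Clec9a-/- library (adjusted p = 1.1e-09), in a range of adjusted p from 3.9e-190 to 0.0006. The fraction of thinned cells with a UMI was 61.1% in the Ccr7 gate of cDC1s, 41.8% in the Ccr7 gate outside the table and 0.404% in the reference, beside 1.60% of the NK gate. Unthinned, these were 71.3%, 52.7% and 1.30%, beside 2.69%, at median depths of 10070, 11163, 13472 and 9272 UMIs.

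The Cxcl9 gate rested on WT alone. It was called higher than the reference (log2 fold change 2.73, SE 0.73, adjusted p = 0.028), but 39 of its 45 WT UMIs came from 2 cells with 28 and 11 UMIs. The cell with 28 lay in cluster 10, with 33 UMIs of Cxcl9 and 0 of Ccr7, and its doublet score was not among the highest. Without the WT library the value was -1.30 (adjusted p = 0.55), without sGSN-/- 3.33 (adjusted p = 0.05) and without sGSN-/-Clec9a-/- 3.39 (adjusted p = 0.0078). With gates of at least 1 UMI it was 2.30 (adjusted p = 0.056) and with DESeq2 2.45 (adjusted p = 0.5), in a range of adjusted p from 4.8e-13 to 0.55. Activated cDC markers without Ccr7 (5 of 5 detected, Ccl22 highest) also stood apart in WT, at 106, 34.8 and 18.5 CPM in the gate. They were at 15.3 CPM or less in the reference, and their part in this Il4i1 was not tested. For Il4i1 the gate was above the reference in 1 of 3 libraries. Across libraries Il4i1 was thus not raised in the Cxcl9 gate.

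By cluster, Il4i1 was 314, 372 and 388 CPM in cluster 8 (358 ± 39.1, SD over 3 libraries) on 324, 473 and 200 UMIs. Cluster 10 followed at 103, 3.22 and 0 CPM, where the WT value was 29 UMIs with 28 in a single cell. The other clusters from 0 to 9 were at 5.67 CPM or less in each library. Cluster 8 stood above clusters 0 to 7, 9 and 10 in every library for 2 enzymes, Il4i1 and Aldh1a2, as it did for 6.51% of the genes compared. A UMI of Il4i1 was present in 63.5% of cluster 8 cells, or 55.6% after thinning.

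The transcript was also concentrated within cells. Cells with 10 or more UMIs of Il4i1 numbered 154 and held 46.4% of its UMIs, and the highest had 84. Of the 153 past the filters, 49 lay in the Ccr7 gate outside the table, 34 in the cDC1 table, 25 in the Cd209a gate and 0 in the C1qa gate. The 25 in the Cd209a gate were looked at after their counts were known. Their cDC2 markers were 2159 CPM in sum (6 of 6 detected), against 1899, 1901 and 1863 CPM in the whole gate. Of this, 934 CPM was Cd209a, the gene that selected them. Their activated cDC markers were 405 CPM (6 of 6, Fscn1 highest), against 28.8, 36.8 and 27.3 CPM in the whole gate. Their monocyte markers were 1936 CPM (3 of 5, Plac8 highest), against 1196, 1497 and 1374 CPM in the gate. Cd7 was 439 CPM in them, against a mean of 180 CPM in the gate. Activated cDC markers, monocyte markers and Cd7 were thus all above the whole gate in these cells.

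The fixed list of other kynurenine pathway and aryl hydrocarbon receptor genes had 16 of 18 symbols in the matrices. In the Ccr7 against the Cd209a gate 1 of 9 tested was higher and 3 lower, with a list median log2 fold change of -0.19 against -0.01 over all genes tested. In the C1qa against the Cd209a gate 0 of 10 were higher and 5 lower (-0.24 against 0.01). In cDC1s, 2 of 9 were higher and 3 lower in the Ccr7 gate (-0.72 against -0.19), and 2 of 9 were higher and 0 lower in the Cxcl9 gate (0.21 against -0.02). Between these 2 gates, 1 of 8 was higher and 4 lower (-0.27 against -0.05). Of the counts of 0 here, that of the C1qa gate was also 0 at an unadjusted p of 0.05 and with DESeq2, and that of the Cxcl9 gate was 2 unadjusted and 0 with DESeq2.

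Kmo, which hydroxylates kynurenine on the branch beside Kynu, led the list. It was lower in the Ccr7 than in the Cd209a gate (-1.49, SE 0.13, adjusted p = 2e-05), lower in the C1qa gate (-2.13, SE 0.07, adjusted p = 2.1e-07), lower in the Ccr7 gate of cDC1s than in the reference (-1.86, SE 0.23, adjusted p = 1.1e-06) and in the Cxcl9 gate (-2.28, SE 0.26), and higher in their Cxcl9 gate than in the reference (0.52, SE 0.11, adjusted p = 0.0045). Ahr, the receptor that binds tryptophan metabolites, was lower in the C1qa gate than in the Cd209a gate (-0.87) and lower in the Ccr7 gate of cDC1s than in the reference (-1.07) and the Cxcl9 gate (-1.15). Slc7a5, a subunit of an exchanger of large amino acids, was lower in the Ccr7 (-1.10, adjusted p = 0.019) and C1qa (-1.20) than in the Cd209a gate, and lower in the Ccr7 than in the Cxcl9 gate of cDC1s (-0.87, adjusted p = 0.041). Slc3a2, its partner subunit, went the other way, higher in the Ccr7 than in the Cd209a gate (0.47, SE 0.10) and higher in the Ccr7 gate of cDC1s than in the reference (0.61, SE 0.11) and the Cxcl9 gate (0.64, SE 0.13). Tiparp, a target of the Ahr protein, was lower in the Ccr7 than in the Cd209a gate (-0.70, SE 0.09). Afmid, the enzyme that releases kynurenine, was higher in the Ccr7 gate of cDC1s than in the reference (1.26, SE 0.36, adjusted p = 0.0078). Wars, the tryptophan tRNA ligase, was higher in the Cxcl9 gate than in the reference (0.45, adjusted p = 0.037). In the C1qa gate Kynu, Kmo and Ahr were all lower than in the Cd209a gate, which also held more plasmacytoid dendritic cell markers and Cd7. In the Cxcl9 gate Kynu and Kmo were both higher than in the reference.

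Nos2 (ENSMUSG00000020826, chromosome 11, 78920787 to 78960254, plus strand), the inducible nitric oxide synthase, gave 129, 48 and 89 UMIs, of which 55.6% lay in the C1qa gate. It was 2.35, 2.10 and 2.71 CPM there (74, 27 and 47 UMIs), 0.204, 0.361 and 0.0860 CPM in the Cd209a gate (9, 7 and 2 UMIs) and 0 in all 3 libraries of the Ccr7 gate, whose floors of 3 UMIs were 1.49, 1.70 and 3.49 CPM. The cDC1 table held only 2 UMIs, both in the sGSN-/-Clec9a-/- library. The C1qa gate was above the Cd209a gate in each library without overlap, by a log2 fold change of 3.50 (SE 0.34, adjusted p = 4.9e-05), and by 4.27 in thinned cells (adjusted p = 4.1e-05, in a range from 1.8e-11 to 0.0014). A UMI was present in 0.756% of the thinned C1qa gate and in 0 of 2125 thinned NK barcodes, which allows up to 0.141%, and in 1.99% unthinned.

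The list of other arginine and polyamine genes had all 13 symbols in the matrices. In the Ccr7 against the Cd209a gate 4 of 11 tested were higher and 2 lower (list median log2 fold change 0.04, all genes -0.01), and in the C1qa against the Cd209a gate 3 of 12 were higher and 5 lower (-0.05 against 0.01). In cDC1s, 3 of 11 were higher and 4 lower in the Ccr7 gate (0.01 against -0.19), 3 of 11 were higher and 0 lower in the Cxcl9 gate (0.21 against -0.02), and 3 of 11 were higher and 4 lower between the gates (-0.12 against -0.05). With DESeq2 5 were higher in the Cxcl9 gate and 2 lower between the gates. The count of 0 lower in the Cxcl9 gate was 0 unadjusted and with DESeq2 too. Slc7a2, a transporter of cationic amino acids, was higher in the C1qa gate by 4.19 (SE 0.23, adjusted p = 1.7e-06), in the gate where Nos2 was higher. Ass1, which starts the remaking of arginine from citrulline, was lower there (-0.89, SE 0.07).

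Ass1 was higher in both Ccr7 gates, by 1.04 outside the table (SE 0.14, adjusted p = 0.00041) and by 2.10 in cDC1s over the reference (SE 0.11, adjusted p = 2.1e-12). Odc1, which turns ornithine into the polyamine putrescine, was higher by 1.04 (SE 0.19) and 1.33 (SE 0.12) in the same comparisons and by 0.98 in the Cxcl9 gate over the reference (SE 0.09). In that last comparison Ass1 (0.56, SE 0.10) and Gch1, which makes a cofactor of nitric oxide synthases (0.42, SE 0.11), were higher too. Asl, the next enzyme after Ass1, was higher by 0.66 and 1.34 in the Ccr7 gates. Gatm, which uses arginine to make creatine, was lower in the Ccr7 gate of cDC1s (-2.07, SE 0.17), as was Srm, the spermidine synthase (-1.83), and Gatm was higher in the C1qa gate (0.94, SE 0.08). Against the Cxcl9 gate, the Ccr7 gate of cDC1s had Gatm (-2.18) and Srm (-1.81) lower and Ass1 higher (1.63). Ass1, Asl and Odc1 were thus called higher together in both Ccr7 gates.

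Aldh1a2 (ENSMUSG00000013584, chromosome 9, 71215789 to 71296243, plus strand, overlapping Gm48124 on the other strand) encodes RALDH2, which makes retinoic acid from retinal. It gave 1290, 678 and 926 UMIs. In cDC1s it was 16.5, 38.1 and 39.2 CPM in the Ccr7 gate (12, 32 and 9 UMIs), 6.53, 5.88 and 2.46 CPM in the Cxcl9 gate and 5.80, 3.93 and 4.95 CPM in the reference. The Ccr7 gate was the high one in every library, with no overlap, and the Cxcl9 gate overlapped the reference. The Ccr7 gate was higher by a log2 fold change of 2.60 over the reference (SE 0.33, adjusted p = 1.8e-06) and of 2.59 over the Cxcl9 gate (SE 0.39, adjusted p = 1.2e-05). The latter was 3.22 without the WT library (adjusted p = 2.3e-05, in a range from 1.1e-10 to 0.0036). The Cxcl9 gate differed from the reference by 0.12 (SE 0.32, adjusted p = 0.9), and by -0.12 without the sGSN-/- library (adjusted p = 0.93, in a range from 0.61 to 0.99).

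Outside the table the levels lay closer together, at 11.95, 18.7 and 12.8 CPM in the Ccr7 gate (24, 33 and 11 UMIs), 7.92, 7.33 and 10.7 CPM in the Cd209a gate and 4.70, 5.60 and 8.08 CPM in the C1qa gate. The Ccr7 gate had the highest value in each library, but in WT 15 of its 24 UMIs came from 1 cell. Against the Cd209a gate it was higher by a log2 fold change of 0.83 (SE 0.26, adjusted p = 0.038), a call near the threshold. It was lost without WT (0.90, adjusted p = 0.11), without sGSN-/- (0.48, adjusted p = 0.34), with gates of at least 1 UMI (0.36, adjusted p = 0.36) and without the highest doublet scores (0.76, adjusted p = 0.081), in a range of adjusted p from 0.0048 to 0.36, and it was 1.68 in thinned cells. The C1qa gate differed from the Cd209a gate by -0.52 (SE 0.22, adjusted p = 0.1). With the library as a block this was -0.54 and called (adjusted p = 0.00086), and it was -0.59 without the sGSN-/-Clec9a-/- library (adjusted p = 0.025) and -0.53 without the filter on low counts (adjusted p = 0.022), in a range from 0.00086 to 0.69.

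Clusters 8 and 9 had the highest levels of Aldh1a2 among cDC1s. Cluster 8 measured 17.4, 33.9 and 17.5 CPM (22.9 ± 9.47, SD over 3 libraries) and cluster 9 measured 12.5, 10.8 and 16.3 CPM (13.2 ± 2.80). The lowest library of cluster 8, at 17.4 CPM, was just above the highest elsewhere, at 16.3 CPM. Clusters 6, 2, 0, 7 and 3 followed with means of 7.57, 7.02, 6.90, 6.30 and 6.12 CPM, while cluster 1 at 0, 0.265 and 0.983 CPM, cluster 5 at 1.44, 0 and 0.520 CPM and cluster 10 at 0, 0 and 3.35 CPM were at the low end. As counted, Kynu and Aldh1a2 thus had opposite places in clusters 9 and 10, with Kynu high in cluster 10 and near 0 in cluster 9, and Aldh1a2 the other way round. Aldh1a2 had only 1 UMI in cluster 10, where 3 UMIs would have been 10.6, 9.67 and 10.04 CPM. Its low place there is therefore uncertain. Cluster 7, with 105 cells of the Cxcl9 gate, held both at middle levels, with means of 11.8 CPM for Kynu and 6.30 CPM for Aldh1a2.

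After thinning, 10.7% of the Ccr7 gate of cDC1s, 5.06% of cluster 9, 3.08% of the Ccr7 gate outside the table, 1.71% of the Cd209a gate and 1.66% of the reference cells had a UMI of Aldh1a2, beside 0.188% of the NK gate. The unthinned shares were 17.1%, 14.2%, 7.78%, 6.45% and 5.14%, beside 0.705%. The reference cDC1s and the Cd209a gate thus had a UMI more often than the NK gate, at a low level. The highest barcode had 76 UMIs, and of 11 barcodes with 10 or more, 5 lay in more than 1 gate.

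Of 15 other retinoid genes, 7 could be tested in the Ccr7 against the Cd209a gate, where 0 were higher in edgeR and 3 lower (list median log2 fold change -0.90, all genes -0.01). In the C1qa against the Cd209a gate 1 of 9 was higher and 3 lower (-0.13 against 0.01). In cDC1s, 1 of 6 was higher and 2 lower in the Ccr7 gate (-0.18 against -0.19), 0 of 6 were called in the Cxcl9 gate (-0.51 against -0.02), and 1 of 2 was higher and 1 lower between the gates (0.75 against -0.05). In the Cxcl9 gate 1 was higher and 3 lower at an unadjusted p of 0.05, with 0 in DESeq2, and in the Ccr7 against the Cd209a gate 0 were higher either way. Dhrs3, which returns retinal to retinol, was higher in the Ccr7 gate of cDC1s by 1.55 over the reference (SE 0.24, adjusted p = 1.9e-05), next to Aldh1a2, and higher in the C1qa than in the Cd209a gate by 1.28 (SE 0.09). Rara, a retinoic acid receptor, was lower than in the Cd209a gate in the Ccr7 gate outside the table (-0.90, SE 0.12) and in the C1qa gate (-0.67, SE 0.06), and lower in the Ccr7 gate of cDC1s than in the reference (-0.65, SE 0.16). Rxra, a partner of such receptors, was lower in the same Ccr7 gates, by -1.15 (SE 0.29, adjusted p = 0.014) and -3.85 (SE 0.87, adjusted p = 0.0013), the second on 0, 1.19 and 0 CPM in the gate, so that its size is uncertain. Between the Ccr7 and Cxcl9 gates Dhrs3 differed by 2.24 (SE 0.34) and Rara by -0.74 (SE 0.19). Rbp4, a retinol carrier, was lower than in the Cd209a gate in the C1qa gate (-6.44, SE 0.65) and in the Ccr7 gate (-3.80, SE 1.19, adjusted p = 0.036), both on values near 0 (0.0318, 0 and 0.0577 CPM, and 0.498, 0 and 0 CPM).

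Ptgs2 (ENSMUSG00000032487, chromosome 1, 150100031 to 150108227, plus strand) encodes COX-2, the inducible enzyme that starts prostaglandin synthesis. It had the most UMIs of the set, 20157, 9586 and 11200. Levels in the C1qa gate were 241, 253 and 214 CPM, the Cd209a gate at 116, 117 and 105 CPM and the Ccr7 gate outside the table at 138, 120 and 59.3 CPM. Cells of the C1qa gate were above both others in all 3 libraries, by a log2 fold change of 1.07 over the Cd209a gate (SE 0.06, adjusted p = 3.2e-06), and the others overlapped. The Ccr7 and Cd209a gates differed by 0.04 (SE 0.20, adjusted p = 0.9), and by -0.20 without the WT library (adjusted p = 0.61, in a range from 0.099 to 1).

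cDC1s held little of it. Ptgs2 was 5.50, 3.57 and 4.36 CPM in their Ccr7 gate (4, 3 and 1 UMIs), 7.35, 3.92 and 9.85 CPM in their Cxcl9 gate and 3.93, 3.52 and 4.47 CPM in the reference, groups that overlapped. The table held 0.836% of the Ptgs2 UMIs and 19.5% of all UMIs. The log2 fold change was 0.84 in the Cxcl9 gate (SE 0.30, adjusted p = 0.11) and 0.19 in the Ccr7 gate (SE 0.53, adjusted p = 0.8), against the reference, and neither was called. With the library as a block the first was also 0.84 (adjusted p = 0.051). The Cxcl9 gate was above the reference within each library. In the sGSN-/-Clec9a-/- library, cells with 7 and 6 UMIs supplied most of its 16 UMIs of Ptgs2. In the NK gate Ptgs2 was 15.4, 8.20 and 4.79 CPM, and 1.27% of thinned NK barcodes and 1.27% of thinned cDC1s had a UMI. In the NK gate barcodes with the highest doublet scores held 81.8% of its UMIs. The thinned share of barcodes with a UMI of Ptgs2 was 37.4% in the C1qa gate, 18.2% in the Cd209a gate and 16.9% in the Ccr7 gate outside the table, and unthinned shares were 55.8%, 30.9% and 29.1%, beside 2.90% of NK barcodes and 3.72% of cDC1s.

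The exception among cDC1 clusters was cluster 4, with 28, 21 and 58 UMIs or 10.9, 10.4 and 32.9 CPM (18.1 ± 12.8, SD over 3 libraries), and 4.28% of its thinned cells had a UMI. It stood above clusters 0 to 3 and 5 to 10 in every library for 1 enzyme, Ptgs2, as it did for 1.41% of the genes compared. The sGSN-/-Clec9a-/- value included cells with 12 and 11 UMIs. Cluster 4 also held cDC2 markers at 330, 267 and 335 CPM in sum (6 of 6 detected, Cd209a highest), against 54.6, 54.2 and 52.1 CPM in the reference cDC1s, and macrophage markers at 143, 98.8 and 173 CPM (9 of 9, Apoe highest). Its monocyte markers were 1278, 1282 and 1277 CPM (4 of 5, Plac8 highest), against 703, 845 and 806 CPM in the reference, and Cd7, a marker of pre-cDCs, was 69.6, 48.1 and 44.8 CPM, against 7.56, 6.19 and 5.38 CPM. Whether cells with these markers account for its Ptgs2 was not tested. Cluster 11, with 60 cells at a median of 2348 UMIs, had 5 UMIs of Ptgs2 in all.

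Ptgs2 was uneven from cell to cell. Barcodes with 10 or more UMIs numbered 1331 and held 59.5% of its UMIs, with up to 113 in 1 barcode. Of the 1330 past the filters, 496 lay in the C1qa gate, 305 in the Cd209a gate, 18 in the Ccr7 gate and 3 in the cDC1 table. Another 208 lay in more than 1 gate, and 251 had none of the markers.

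Of 18 other eicosanoid genes, 12 could be tested in the Ccr7 against the Cd209a gate, where 1 was higher and 6 lower (list median log2 fold change -1.05, all genes -0.01). In the C1qa against the Cd209a gate 5 of 13 were higher and 2 lower (0.30 against 0.01). In cDC1s, 1 of 8 was higher and 3 lower in the Ccr7 gate (-0.74 against -0.19), 2 of 10 were higher and 1 lower in the Cxcl9 gate (0.21 against -0.02), and 1 of 4 was higher and 2 lower between the gates (-0.69 against -0.05). Ptgs1, the constitutive counterpart of Ptgs2, was higher in the C1qa gate by 2.58 (SE 0.24, adjusted p = 3.7e-05), as was Pla2g4a, which releases arachidonic acid, by 1.34 (SE 0.08), and Hpgds, a prostaglandin D synthase, by 1.25 (SE 0.13). Hpgd, which degrades prostaglandins, was higher there too (0.82, SE 0.16, adjusted p = 0.0039), while Alox5ap (-0.27) and Ptger4 (-0.29) were lower.

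Alox5, which starts leukotriene synthesis, was lower in the Ccr7 than in the Cd209a gate (-2.48, SE 0.29, adjusted p = 0.00016), and so were Hpgd (-2.10, SE 0.35, adjusted p = 0.0014) and Ptgir, the prostacyclin receptor (-2.07, SE 0.55, adjusted p = 0.017). Alox5ap, the partner of Alox5, was lower in the Ccr7 gate of cDC1s than in the reference (-2.002, SE 0.13, adjusted p = 9e-11). Ptger4, a receptor for prostaglandin E2, was higher there by 1.87 (SE 0.12, adjusted p = 4.4e-11) and Ptger2, another such receptor, lower (-2.82, SE 0.66). In the Cxcl9 gate Hpgds (1.03, SE 0.29, adjusted p = 0.037) and Ptger4 (0.40, SE 0.09) were higher than in the reference and Alox5ap lower (-0.30, SE 0.07). Between the Ccr7 and Cxcl9 gates Alox5ap differed by -1.60 (SE 0.14), Ptger4 by 1.59 (SE 0.15) and Tbxas1, the thromboxane synthase, by -1.55 (SE 0.34).

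Acod1 (ENSMUSG00000022126, chromosome 14, 103046977 to 103056573, plus strand), which makes itaconate from a citric acid cycle intermediate, gave 157, 143 and 118 UMIs. The C1qa gate held 40, 14 and 34 (1.27, 1.09 and 1.96 CPM), the Cd209a gate 3, 9 and 26 (0.0681, 0.464 and 1.12 CPM) and the outer Ccr7 gate 3, 1 and 4. The C1qa gate was above the Cd209a gate within each library, but its lowest library was under the highest of the other. The log2 fold change of 1.58 was not called (SE 0.67, adjusted p = 0.096). With the library as a block it was 1.70 and called (adjusted p = 0.0053), without the sGSN-/-Clec9a-/- library it was 2.55 (adjusted p = 0.034) and without WT 0.94 (adjusted p = 0.17). It was also called without the filter on low counts (1.55, adjusted p = 0.023) and with gates of at least 1 UMI (1.95, adjusted p = 0.025), in a range from 0.0053 to 0.24. The Ccr7 and Cd209a gates differed by 1.92 (SE 1.31, adjusted p = 0.31) on 8 UMIs in the Ccr7 gate.

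Acod1 was rare by cell share, at 0.212% of the thinned C1qa gate and 0.282% of the thinned NK gate. In the cDC1 Cxcl9 gate it gave 8, 0 and 6 UMIs against 1, 2 and 0 in the reference, and 7 of the 8 in WT came from 1 cell. That cell lay in cluster 4, which also held cDC2, macrophage and monocyte markers. Leaving out the highest doublet scores turned the direction of the Acod1 ratio of sGSN-/- over WT in cDC1s. On 2 and 9 UMIs, this requires that the cell was among those scores. It did not pass the filter there, and the alternatives that tested it gave log2 fold changes from 5.36 to 6.81 (adjusted p from 1e-07 to 0.00069) on these few UMIs. Its largest counts lay elsewhere: 5 barcodes, with up to 47 UMIs, held 30.6% of all its UMIs and none was in a gate. Those 5, looked at after their counts were known, had a median of 4976 UMIs and monocyte markers at 908 CPM in sum (3 of 5 detected, Plac8 highest, Vcan and Chil3 at 0). Neutrophil markers summed to 42.2 CPM, with S100a9 and Retnlg at 0.

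The list of 11 other genes of itaconate and citric acid cycle metabolism had 1 higher and 4 lower in the Ccr7 against the Cd209a gate (list median log2 fold change -0.23, all genes -0.01) and 4 higher and 0 lower in the C1qa against the Cd209a gate (0.10 against 0.01). In cDC1s it had 2 higher and 6 lower in the Ccr7 gate (-0.46 against -0.19), 1 higher and 0 lower in the Cxcl9 gate (0.07 against -0.02), and 2 higher and 4 lower of 10 tested between the gates (-0.22 against -0.05), which with DESeq2 were 1 and 2. Both counts of 0 lower were 0 unadjusted and with DESeq2. In the C1qa gate Idh1 (0.66) and Aco1 (0.60), which act on isocitrate and citrate, were higher than in the Cd209a gate. Nfe2l2, a transcription factor that itaconate is known to activate, was higher in the C1qa (0.54, SE 0.09) and outer Ccr7 (0.42, SE 0.12) than in the Cd209a gate, and higher than in the reference in the Ccr7 (1.39, SE 0.10) and Cxcl9 (0.43, SE 0.10) gates of cDC1s. Idh2, a mitochondrial isocitrate dehydrogenase, was lower in the outer Ccr7 gate (-0.63, SE 0.15), as was Idh3a (-0.51, SE 0.12), and Idh2 was lower in the Ccr7 gate of cDC1s than in the reference (-1.24, SE 0.29) and the Cxcl9 gate (-1.21, SE 0.34). In this last comparison Nfe2l2 (1.08, SE 0.13) and Idh1 (0.90, SE 0.35, adjusted p = 0.041) were higher. Hmox1, a target of that factor which degrades haem, was higher in the C1qa gate (2.03, SE 0.25) and lower in the Ccr7 gate of cDC1s (-2.23, SE 0.62).

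**Figure D2:**
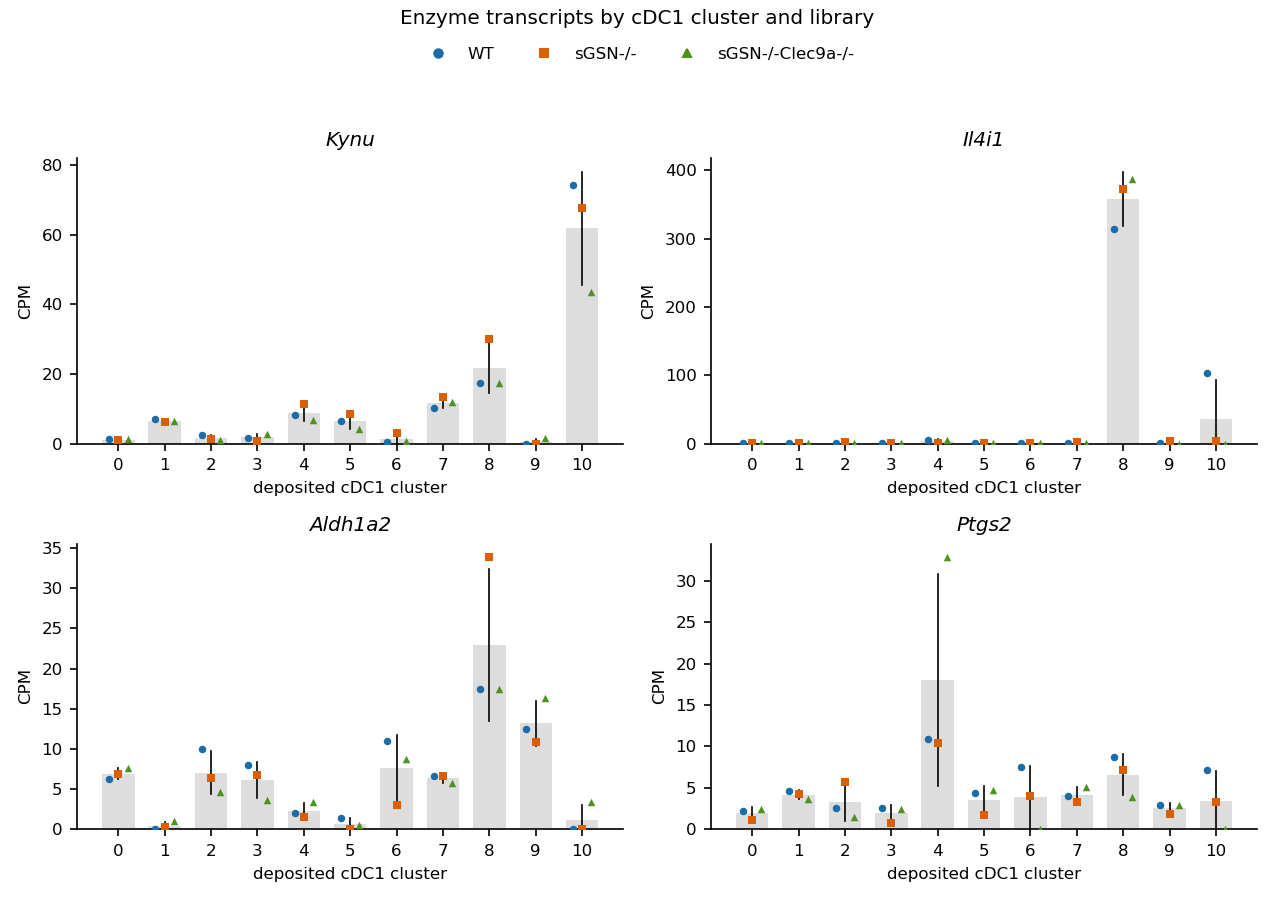
Level of Kynu, Il4i1, Aldh1a2 and Ptgs2 in the deposited cDC1 clusters 0 to 10, in CPM; symbols are the 3 libraries, bars their mean and lines 1 SD, drawn down to 0 where they would pass it. Kynu peaked in cluster 10 at 61.9 CPM, Il4i1 and Aldh1a2 in cluster 8 at 358 and 22.9 CPM, and Ptgs2 in cluster 4 at 18.1 CPM.

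Counted over all cells past the filters, the enzymes fell into groups by place. The cDC1 table held 46.8% of Ido1, 19.2% of Il4i1, 15.7% of Aldh1a2, 10.7% of Kynu and 4.10% of Acod1 UMIs, and under 1% of those of Nos2 and Ptgs2, against 19.5% of all UMIs. Ido1 was over that share, and Il4i1 was close to it, at 15.4%, 24.1% and 19.1% by library. The Ccr7 gate outside the table, with 1.17% of all UMIs, held 25.2% of those of Il4i1. The C1qa gate, with 15.5% of all UMIs, held 55.6% of Nos2 and 35.7% of Ptgs2. The Cd209a gate, with 21.8%, held 44.4% of Kynu, 25.6% of Aldh1a2, 24.1% of Ptgs2 and 22.0% of Il4i1. Barcodes with none of the markers held 45.8% of Acod1 and 28.6% of Nos2, against 14.3% of all UMIs. By library the Acod1 share was 55.5%, 57.3% and 18.8%, against 14.6%, 11.9% and 16.3% of all UMIs. Barcodes in more than 1 gate held 20.2% of Aldh1a2, against 7.52% of all UMIs.

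**Figure D3:**
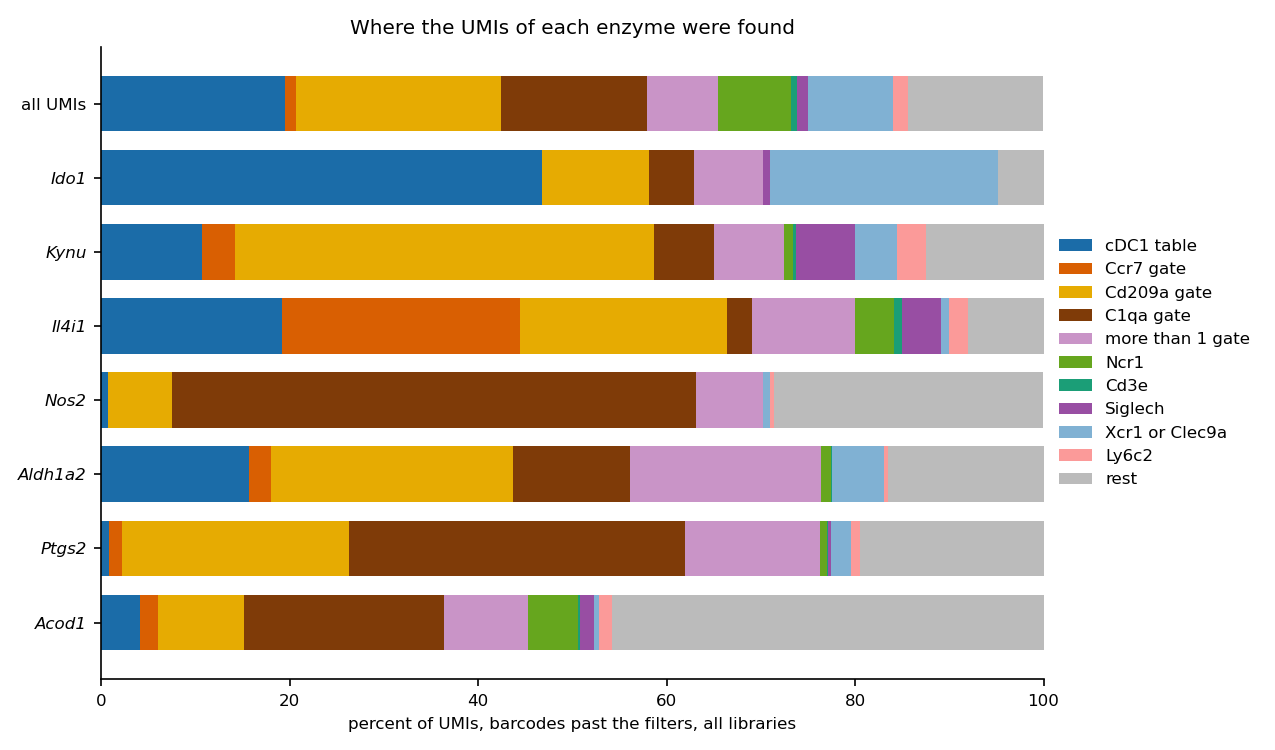
Share of the UMIs of each enzyme, and of all genes, that lay in the cDC1 table, in each gate outside it and in the remaining barcodes split in turn by Ncr1, Cd3e, Siglech, Xcr1 or Clec9a, and Ly6c2; bars sum the 3 libraries. The C1qa gate held the largest share of Nos2 and Ptgs2, and the cDC1 table that of Ido1.

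Whether Il4i1 was more frequent in cells with Kynu or Aldh1a2 than in other cells differed between populations. In the Ccr7 gate outside the table, after thinning, 24 of 38 cells with Kynu had Il4i1 (63.2%), against 39.0% of those without, and 8 of 10 cells with Aldh1a2 had it (80%), against 40.6%. In the thinned Cd209a gate 8.52% of Kynu cells had Il4i1, against 3.32% of the others, but 1.04% of Aldh1a2 cells did, against 3.83%. In the Ccr7 gate of cDC1s the shares with Il4i1 were 50% of 8 Kynu cells, against 61.8% of the others, and 57.1% of 14 Aldh1a2 cells, against 61.5%. Kynu and Aldh1a2 were seldom seen in the same cell, on small numbers: 0 of 8 thinned Kynu cells of the cDC1 Ccr7 gate and 0 of 22 of cluster 8 had Aldh1a2, against 11.4% and 9.66% of the others. In the Cd209a gate 1 of 493 Kynu cells did (0.203%, against 1.86%), and in the reference 1 of 75 (1.33%, against 1.66%). Deeper cells show more genes of any kind, which thinning evens out only in part, and cells of 1 library are not replicates, so no test was made.

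The likeness of patterns was read as Pearson's r of log2(CPM + 1) over the 36 sums of library and cluster, among 10042 genes, where sums of 1 library share their pool of mice and shallow clusters share low depth. Il4i1 was most like Snn (r = 0.926), Slamf1 (0.916) and H2-M2 (0.903), each highest in cluster 8. Aldh1a2 was most like Slc27a3 (0.860), Il15 (0.852) and Adam22 (0.832), also highest in cluster 8. Kynu was most like Gbp2 (0.821) and Gbp5 (0.820), which were highest in cluster 10, and Slc2a6 (0.791). Ptgs2 was most like Atg16l2 (0.824), Slc12a4 (0.801) and Csf1r (0.798), all led by the shallow cluster 11. Between the enzymes r was 0.476 for Kynu and Il4i1, 0.290 for Il4i1 and Aldh1a2, -0.337 for Kynu and Aldh1a2 and -0.360 for Aldh1a2 and Ptgs2.

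Genotypes were compared as ratios of CPM with exact 95% intervals for counting error only and no test, since a genotype cannot be told apart from its library. A ratio past 1.5-fold was marked where the libraries held at least 100 UMIs. In all cDC1s 4 enzymes reached that depth. Il4i1 was 12.1, 21.01 and 10.5 CPM, high in the sGSN-/- library, with ratios of 1.74 for sGSN-/- over WT (interval 1.52 to 1.99; 1 of 4 enzymes, and 1.21% of genes, were this much higher) and 0.501 for sGSN-/-Clec9a-/- over sGSN-/- (0.426 to 0.588; 1 of 4 enzymes, and 2.39% of genes, were this much lower). With the 12 clusters weighted equally these became 0.93 and 1.0, where the WT mean includes the single cell of cluster 10 with 28 UMIs. In cluster 8 alone Il4i1 was 314, 372 and 388 CPM. The share of cDC1s in cluster 8, where Il4i1 was highest, moved the same way, at 3.63%, 6.66% and 3.21%. Kynu moved in the same direction within 1.5-fold, at 1.44 (1.15 to 1.80) and 0.670 (0.519 to 0.863), Aldh1a2 was at 0.929 and 0.875, and Ptgs2 at 0.878 and 1.42.

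Gates gave a mixed picture between genotypes. In the Ccr7 gate outside the table both enzymes with enough UMIs were lower in sGSN-/-Clec9a-/- than in sGSN-/-, Il4i1 at 0.641 (0.534 to 0.766) and Ptgs2 at 0.494 (0.357 to 0.674), where 8.5% of genes were this much lower. The activated cDC markers of that gate fell in the same library, and its macrophage markers, all 9 detected with Apoe highest, were 199, 286 and 603 CPM; their part in the difference was not tested. In the Ccr7 gate of cDC1s the only enzyme with enough UMIs, Il4i1, went up instead, at 2.31 (1.90 to 2.80), as did 5.19% of genes. There 6 of 28 sGSN-/-Clec9a-/- cells held 73.9% of its 176 UMIs, and the top cells had 37 and 25. In cluster 8, which held most cells of that gate, Il4i1 was 372 and 388 CPM in these libraries, so that the rise was not seen there.

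In the C1qa gate 1 of 5 enzymes was past 1.5-fold lower in sGSN-/- over WT (1.16% of genes were), Il4i1 at 0.581 (0.352 to 0.922), on 23 and 97 UMIs. Over WT, 1 of 5 was past 1.5-fold higher in sGSN-/-Clec9a-/- (2.41% of genes were), Aldh1a2 at 1.72 (1.35 to 2.18), on 140 and 148 UMIs. Ptgs2, at 1.05 (1.01 to 1.09), differed little in the C1qa gate, where its counts were large. In the Cd209a gate none of the 4 enzymes with enough UMIs was past 1.5-fold between sGSN-/- and WT.

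The 250 bases upstream of the annotated start were at hand, in a table of RefSeq promoters (GRCm38.p6) that is not complete, for 4 of the 8 enzymes: Il4i1, Aldh1a2, Ptgs2 and Acod1. Il4i1 and Aldh1a2 are shown because both were called higher in the Ccr7 gate in all 3 comparisons that had it, and Ptgs2 because it had the most UMIs and a different pattern. They lie at chr7:44836038-44836287, chr9:71215539-71215788 and chr1:150099781-150100030 on the plus strand, and the Il4i1 start of RefSeq lies inside the span given above. Motifs searched on both strands were 10-base patterns for NF-kB and for interferon regulatory factors, TTCNNNGAA (STAT), TTGCNNAA (C/EBP), TGANTCA (AP-1), the TATA box TATAAA, and CCAAT, with no overlapping matches, and capitals mark a match.
Il4i1: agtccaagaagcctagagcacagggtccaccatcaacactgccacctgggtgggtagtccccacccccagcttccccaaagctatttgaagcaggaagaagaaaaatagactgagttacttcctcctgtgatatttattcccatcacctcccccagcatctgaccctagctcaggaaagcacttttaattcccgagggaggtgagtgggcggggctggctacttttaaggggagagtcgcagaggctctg
Aldh1a2: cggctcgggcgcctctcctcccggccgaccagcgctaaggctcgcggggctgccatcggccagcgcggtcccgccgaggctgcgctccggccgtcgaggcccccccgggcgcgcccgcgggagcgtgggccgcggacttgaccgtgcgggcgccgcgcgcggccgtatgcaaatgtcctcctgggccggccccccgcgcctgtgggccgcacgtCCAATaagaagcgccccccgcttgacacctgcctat
Ptgs2: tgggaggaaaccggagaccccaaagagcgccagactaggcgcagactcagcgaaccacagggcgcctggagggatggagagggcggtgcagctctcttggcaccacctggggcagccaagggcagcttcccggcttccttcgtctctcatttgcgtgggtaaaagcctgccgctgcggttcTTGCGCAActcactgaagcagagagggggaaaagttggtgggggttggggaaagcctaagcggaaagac

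Il4i1 had none of the 7 motifs in this window. Aldh1a2 had CCAAT, 36 bases before the start, and Ptgs2 had TTGCNNAA, 69 bases before it. Over 32851 windows of this length CCAAT was present in 33.8%, TATAAA in 12.4%, TTGCNNAA in 9.56%, TTCNNNGAA in 7.02%, TGANTCA in 6.75%, the interferon pattern in 2.98% and the NF-kB pattern in 1.41%. Acod1 had TATAAA at 28 bases and CCAAT at 107 bases. The GC content was 53.2% for Il4i1, 77.6% for Aldh1a2, 61.6% for Ptgs2 and 44.4% for Acod1, and 97.9% of windows were at or below that of Aldh1a2. A match describes letters in a window, and the windows shared by Il4i1 and Aldh1a2 held no motif in common.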

How the data were processed

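As deposited, each library is a matrix of unnormalised UMI counts by gene identifier and barcode, from Cell Ranger 6.0.1 per the file headers. A deposited table from Seurat lists the library name and cluster number of each cDC1, and was joined to the matrices by barcode. The authors' UMI totals in the table equalled the matrix sums for 4559 cells and differed by at most 34 in 1247. The members and lists were chosen with earlier results of these data known. Further genes of the set are not reported here.

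Barcodes outside the table needed 200 genes and at most 16.7% mitochondrial UMIs: 54 and 1300 failed. Barcodes shared between libraries numbered 26, 28 and 27, with 0 in all 3, and 38 symbols belonged to more than 1 gene. Scrublet's automatic threshold called 0 doublets, so removal of the top 6% of scores (766, 490 and 556 barcodes) served as an alternative.

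UMIs were summed per library and gate, 6 sums per comparison, and tested with edgeR 4.0.16 (TMM, filterByExpr, quasi-likelihood F-test, Benjamini-Hochberg adjustment over all genes tested, 0.05) in R 4.3.3. Gate genes were left out of results. SE was derived from the fold change and F. The 3 libraries are the replicates, so the spread holds any difference between genotypes. Cells of a library came from the same pool, which pairs the gates by design; deviations from gate means correlated within libraries at 0.171, 0.0687 and 0.0936 in the Ccr7 against Cd209a comparison, 0.387, 0.189 and 0.296 in C1qa against Cd209a, 0.0475, 0.0726 and 0.0451 in Ccr7 against the reference, 0.151, 0.153 and 0.194 in Cxcl9 against the reference, and 0.0523, 0.0663 and 0.0340 in Ccr7 against Cxcl9. Alternatives were DESeq2 1.42.0, no TMM factors, no count filter, each library left out, the library as a block, gates of 1 or 3 UMIs, doublet removal, thinning to 3900 UMIs and, for genotype ratios, clusters weighted equally. Scripts were tested on simulated counts. Named genes were the members, some of the list genes called in a comparison, and the 3 genes most like each member with at least 5 CPM in a cluster. The called list genes named were mostly those with large changes, but not in strict order of size. Lists held kynurenine and aryl hydrocarbon receptor, arginine and polyamine, retinoid, eicosanoid, and itaconate and citric acid cycle genes. Python 3.11.15, numpy 2.4.6, scipy 1.17.1, pandas 2.3.3, scanpy 1.11.5 and matplotlib 3.10.9 did the rest. Coordinates are from GENCODE M21.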

Additional observations from a re-analysis of the deposited data

How the results depend on the processing

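Of 233 alternative fold changes of the enzymes, 204 kept the direction and the call, 10 turned direction, 9 lost the call and 10 gained one. Values that turned were near 0 or rested on few UMIs. In the Ccr7 against the Cd209a gate, Ptgs2 (0.04) became -0.0278 without TMM factors, -0.0159 without the count filter, -0.203 without the WT library and -0.00890 with the library as a block (-0.203 to 0.218 with a library left out). Against the reference cDC1s, Ptgs2 in the Ccr7 gate (0.19) became -0.0593 without WT (-0.0593 to 0.373), Il4i1 in the Cxcl9 gate (2.73) became -1.30 without WT (-1.30 to 3.39), and Aldh1a2 in the Cxcl9 gate (0.12) became -0.12 without sGSN-/-, -0.0327 without the highest doublet scores and -0.14 in thinned cells (-0.12 to 0.382 with a library left out). Kynu in the Ccr7 against the Cxcl9 gate (-0.48) became 0.0107 without WT (-1.15 to 0.0107). The block ended or added no call of an enzyme other than those of Aldh1a2 and Acod1 in the C1qa against the Cd209a gate, and moved no count of calls by over 1.5 times.

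Counts of called genes moved more. They were 3365 in the Ccr7 against the Cd209a gate (1847 to 2838 with a library left out, 1927 without WT, 1847 without sGSN-/-, 2080 thinned), 4689 in the C1qa against the Cd209a gate (3107 to 3769, 3107 without sGSN-/-), 4452 in the Ccr7 gate of cDC1s against the reference (2786 thinned), 963 in the Cxcl9 gate (486 to 654, 560 without WT, 486 without sGSN-/-, 639 with gates of at least 1 UMI, 490 thinned) and 3116 between these gates (1724 thinned). Of 35 alternative genotype ratios in cDC1s, 8 were counted as moved, not all of them across 1.5-fold. With clusters weighted equally, Il4i1 was 0.93 and 1.0 and Ptgs2 0.544 and 2.28 (sGSN-/- over WT, then sGSN-/-Clec9a-/- over sGSN-/-). The Ptgs2 values lean on cluster 11, at 46.01, 12.8 and 68.4 CPM on 2, 1 and 2 UMIs, and the WT value of Il4i1 on 1 cell of cluster 10 with 28 UMIs. For the second ratio thinning gave 0.611 for Il4i1 and 1.04 for Ptgs2, and doublet removal gave 1.04 for Ptgs2. These did not cross 1.5-fold, from 0.501 for Il4i1 and 1.42 for Ptgs2. Acod1 in sGSN-/- over WT was 0.308 on 2 and 9 UMIs (interval 0.0324 to 1.49), and turned to 2.75 without the highest doublet scores. Both values rest on too few UMIs to be read. Gates rest on 1 or 2 genes and miss cells whose gate transcript was not captured, and with 1 library per genotype an effect of genotype cannot be told apart from one of the pool, the sort or the run.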
